A study of Caenorhabditis elegans with 8 samples.

Results

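The transthyretin-like (ttr) genes of the nematode Caenorhabditis elegans encode small secreted proteins that share a fold with vertebrate transthyretin, the carrier of thyroid hormone and retinol-binding protein. Nematodes have expanded the family greatly, and most members have no assigned function. TTR-52 bridges phosphatidylserine on dying cells and CED-1, a receptor on the cells that engulf them, and TTR-33 protects dopaminergic neurons from oxidative damage. Members were taken by name, as every gene called ttr- followed by a number, which gave 59 of the 46904 genes in the expression table. Of these, 58 were annotated as protein-coding and 1, ttr-4, as a pseudogene.

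The data were RNA sequencing of whole hermaphrodites, in 4 groups of 2 libraries. Of the groups, 2 carried daf-2, aak(0) and hzl-1 mutations, and the other two carried daf-2 and hzl-1 mutations alone; here aak(0) stands for loss of both aak-1 and aak-2, which encode the catalytic subunits of the energy sensor AMPK. daf-2 encodes the insulin-like receptor whose temperature-sensitive mutants arrest as dauer larvae, a long-lived, non-feeding stage, and hzl-1 is the gene C44H9.4. The groups were aak(0) post-dauers collected at 192 h, aak(0) dauers collected at 96 h, daf-2 hzl-1 post-dauers at 192 h and daf-2 hzl-1 dauers at 96 h. Every group therefore carried the daf-2 and hzl-1 mutations, and the hzl-1 wild type was not analysed here. Animals were synchronised by bleaching and grown at 25 °C, and the series' design text places the post-dauer collection 96 h after a shift to the permissive temperature; stage and age cannot be told apart in this design. The labels name no alleles and do not tie the libraries of a group to separate cultures, and p-values accordingly measure a spread between libraries that may be technical.

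Between 13992157 and 26984881 reads were assigned to genes in each library, of which 0.548% to 12.4% came from ribosomal RNA genes. Spearman's correlation between the libraries of a group lay between 0.935 and 0.979 across genes. Transcripts of aak-1 and aak-2 were present in the aak(0) libraries, at 7.16 FPKM or more, so their level does not check the genotype labels, and hzl-1 was at 3.28 FPKM or less in every library. The stages were marked as labelled by 6 yolk genes, whose summed level was 3810 and 4977 FPKM in aak(0) post-dauers and 19468 and 21298 FPKM in daf-2 hzl-1 post-dauers; no dauer library exceeded 7.36 FPKM. One library stood apart: the dauer cuticle genes col-2, col-37, col-40 and cut-1 summed to 34.6 FPKM in daf-2 hzl-1 dauer library 1, against 3087 FPKM in library 2 of that group and 6375 and 6403 FPKM in the aak(0) dauers. In that same library 49 of the 59 family members were lower than in library 2 and 6 were higher. The matching share of all genes is not given. Library 1 was also lower for 43 members and higher for 16 in the aak(0) dauers. For the aak(0) post-dauers these numbers were 19 and 40, and for the remaining group 33 and 26. The library that stood apart also had the fewest reads (13992157), the largest ribosomal RNA share (12.4%) and the fewest genes above 0 (18065). The counts of members called are therefore given with and without that library.

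Most of the family was expressed, from under 1 FPKM to 2846 FPKM. Levels are in FPKM, fragment counts scaled by transcript length and library size, which can be set side by side between genes. The 59 members together took 0.547% and 0.509% of reads in aak(0) post-dauers, 0.351% and 0.417% in aak(0) dauers, 0.231% and 0.254% of reads in daf-2 hzl-1 post-dauers, with 0.228% and 0.361% in daf-2 hzl-1 dauers. The share in both aak(0) post-dauer libraries was above that in every other library. The 2 libraries of the daf-2 hzl-1 dauers differed by more than their group differed from the aak(0) dauers or from the daf-2 hzl-1 post-dauers. With 2 libraries a group, an exact two-sided permutation test of the share cannot go below p = 0.333, and none was run.

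**Figure D1:**
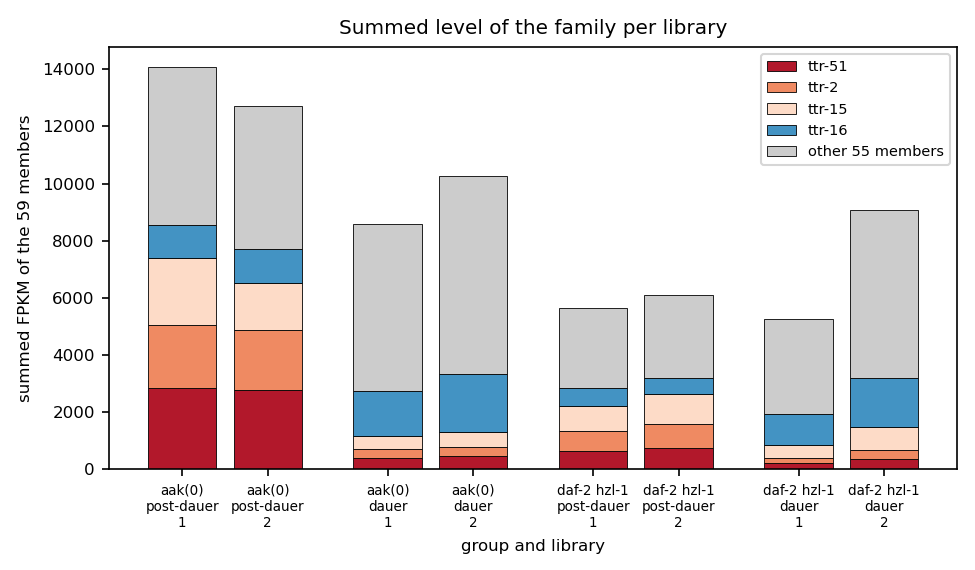
Summed FPKM of the 59 members (y axis) in each of the 8 libraries (x axis), with ttr-51, ttr-2, ttr-15, ttr-16 and the other 55 members stacked. The aak(0) post-dauers reach 14076 and 12709 FPKM, with ttr-51, ttr-2 and ttr-15 as the largest named blocks, and ttr-16 is the largest named block in the dauers.

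Which members carried that level depended on the stage. In aak(0) post-dauers the highest were ttr-51, ttr-2 and ttr-15, at 2806 ± 56.5, 2150 ± 69.5 and 2003 ± 488 FPKM (SD, n = 2), and the libraries of the last 2 genes overlapped. These 3 genes made up 52.5% and 51.3% of the family's summed FPKM there, against 13.8% and 12.8% in aak(0) dauers. The same 3 genes led in daf-2 hzl-1 post-dauers in another order, with ttr-15 at 970 ± 125, ttr-2 at 745 ± 106 and ttr-51 at 706 ± 71.1 FPKM (SD, n = 2); the ranges of ttr-2 and ttr-51 overlapped between those 2 libraries. In both dauer groups ttr-16 was the highest member, at 1803 ± 326 FPKM in aak(0) dauers and 1409 ± 431 FPKM in daf-2 hzl-1 dauers (SD, n = 2). It was followed by ttr-25 and ttr-41 in aak(0) dauers, at 600 ± 121 and 560 ± 87.0 FPKM, and by ttr-15 and ttr-25 in daf-2 hzl-1 dauers, at 628 ± 274 and 559 ± 250 FPKM; neither of those neighbouring pairs differed beyond its spread. In a separate gene annotation the exons of ttr-16 share 209 bases with lin-3 on the opposite strand. On the deposited coordinates the overlap of these genes is shorter. The lin-3 gene itself was at 29.9 FPKM or less in every library.

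**Figure D2:**
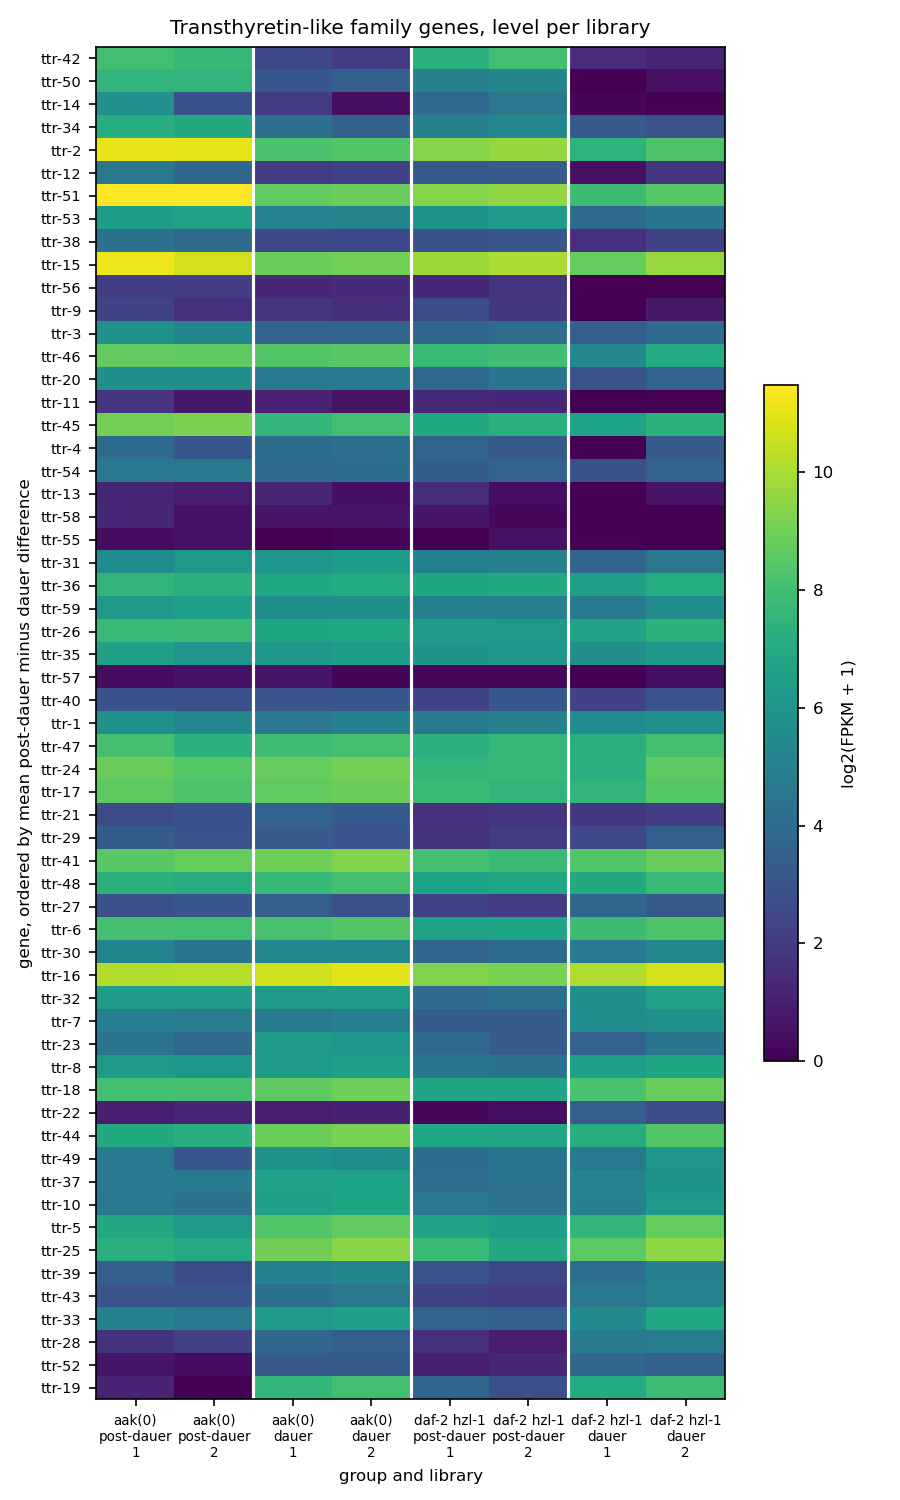
Level of each of the 59 members (rows, ordered by mean post-dauer minus dauer difference) in each library (columns), as log2(FPKM + 1). Members at the top are brighter in post-dauers, those at the bottom, ending with ttr-19, are brighter in dauers, and ttr-16, ttr-15, ttr-2 and ttr-51 stay bright throughout.

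At the other end, 5 members had a mean under 1 FPKM over the 8 libraries and were not tested. They were ttr-55, ttr-57, ttr-58, ttr-13 and ttr-11, at means of 0.167, 0.274, 0.48, 0.8 and 0.952 FPKM. Just above the limit were ttr-56 at 1.68, ttr-9 at 2.42 and ttr-22 at 2.57 FPKM. Differences are given for the remaining 54 members as log2(FPKM + 1), a scale that understates the change of low genes, from limma's moderated two-sided test fitted to all 8 libraries and 15365 genes, with Benjamini-Hochberg adjustment over those genes. A member counts as called where its adjusted p is under 0.05.

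Leaving the dauer stage changed the family in both directions and in both genotypes. In aak(0) animals 16 of 54 tested members rose in post-dauers relative to dauers and 14 fell, while among all tested genes 25.9% rose and 27% fell. In daf-2 hzl-1 animals 13 rose and 23 fell, against 39.4% and 27.8% of all genes. The median difference of the members was -0.18 in aak(0) and -0.40 in daf-2 hzl-1 animals, against 0.02 and 0.34 for all tested genes. The all-gene median moved with the scaling in both genotypes. Under edgeR's TMM scaling of the recovered read counts it was 0.00 in aak(0) and -0.01 in daf-2 hzl-1 animals, with member medians of -0.05 and -0.86. Under edgeR's RLE scaling the all-gene medians were 0.16 and 0.10, and after rescaling every library to one median 0.23 and 0.24. With that rescaling 19 members rose and 13 fell in aak(0) animals, and 13 rose and 25 fell in daf-2 hzl-1 animals. Without daf-2 hzl-1 dauer library 1 fewer members were called higher and more lower in that genotype, and the all-gene median was 0.20. Without library 2 of that group more were called higher and fewer lower, and the all-gene median was 0.52. Without library 1 the daf-2 hzl-1 stage difference was 0.80 in place of 1.62 for ttr-46, 1.56 in place of 2.17 for ttr-12, -3.29 in place of -2.62 for ttr-33 and -1.72 in place of -1.14 for ttr-10. These 4 calls were kept without library 1, and that of ttr-10 was lost without library 2 (-0.55). In the authors' deposited table, 13 members were significantly higher and 13 lower in aak(0) post-dauers (21.3% and 24.1% of all genes), and 12 higher and 26 lower in daf-2 hzl-1 post-dauers (31.3% of all genes higher, 28.6% lower).

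A set of 11 members rose with dauer exit in both genotypes: ttr-2, ttr-12, ttr-14, ttr-20, ttr-34, ttr-38, ttr-42, ttr-50, ttr-51, ttr-53 and ttr-56. They are 20.4% of the 54 tested members, and 23.3% of all tested genes rose in both. The steepest was ttr-42, a gene on the X chromosome (X:2577742-2578262, plus strand, build WBcel235). It had 254 and 204 FPKM in aak(0) post-dauers against 4.56 and 3.06 in aak(0) dauers, and 160 and 251 FPKM in daf-2 hzl-1 post-dauers against 1.76 and 1.27 in daf-2 hzl-1 dauers. The 2 stages were far apart in both genotypes, with differences of 5.59 ± 0.28 in aak(0) (SE, limma adjusted p = 7.2e-05) and 6.33 ± 0.28 in daf-2 hzl-1 animals (adjusted p = 1.3e-05). Between genotypes ttr-42 was not called in post-dauers (0.18, 95% interval -0.50 to 0.86) or in dauers (0.93, 0.24 to 1.60, limma adjusted p = 0.051).

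Next came ttr-50, on chromosome IV (IV:11640047-11641015, minus strand), which followed the stage and the genotype alike. It had 180 and 184 FPKM in aak(0) post-dauers against 7.63 and 10.2 in aak(0) dauers, and 32.2 and 36.1 FPKM in daf-2 hzl-1 post-dauers against 0 and 0.45 in daf-2 hzl-1 dauers. All 4 groups were separate from each other. In the daf-2 hzl-1 dauers the values stand for 0 and 6 reads, so the fitted difference of 4.87 ± 0.25 there (SE, limma adjusted p = 1.8e-05) depends on the pseudocount. In aak(0) animals the stage difference was 4.22 ± 0.25 (SE, limma adjusted p = 9.7e-05).

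The members ttr-51, ttr-2 and ttr-34 rose in both genotypes too. ttr-51 (IV:13250648-13252311, minus strand) had 2846 and 2766 FPKM in aak(0) post-dauers against 409 and 464 in aak(0) dauers, and 656 and 757 FPKM in daf-2 hzl-1 post-dauers against 235.04 and 357 in daf-2 hzl-1 dauers. ttr-2 (III:9927732-9929004, plus strand) had 2199 and 2101 FPKM in aak(0) post-dauers against 293 and 328 in aak(0) dauers, and 670 and 820 FPKM in daf-2 hzl-1 post-dauers against 170 and 312 in daf-2 hzl-1 dauers. For both genes the aak(0) post-dauers were highest and the stages did not overlap in either genotype. The stage differences were 2.68 and 2.79 in aak(0) animals and 1.28 and 1.68 in daf-2 hzl-1 animals, with limma adjusted p between 2.3e-04 and 0.0020. ttr-34 rose by 3.16 ± 0.26 in aak(0) and by 2.13 ± 0.26 in daf-2 hzl-1 animals (SE, limma adjusted p = 2.3e-04 and 4.4e-04).

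Some of these rises rest on less. ttr-14 had 55.6 and 6.53 FPKM in aak(0) post-dauers against 3.08 and 0.39 in aak(0) dauers, and 14.9 and 22.6 FPKM in daf-2 hzl-1 post-dauers against 0.11 and 0 in daf-2 hzl-1 dauers, the last 2 values standing for 2 and 0 reads. The libraries of each aak(0) group differed several-fold, and the aak(0) call (3.12 ± 0.94, SE, limma adjusted p = 0.029) was lost without any one daf-2 hzl-1 library and without aak(0) post-dauer library 1 or aak(0) dauer library 2, with adjusted p up to 0.166 over all alternatives. ttr-56 was listed at 0 in both daf-2 hzl-1 dauer libraries and at 1.51 and 2.38 FPKM in daf-2 hzl-1 post-dauers, so no fold is given. ttr-20, which rose by 0.98 ± 0.29 and 0.87 ± 0.29 in aak(0) and daf-2 hzl-1 animals (SE, limma adjusted p = 0.026 and 0.032), lost the aak(0) call without any one aak(0) library and was not called by edgeR in daf-2 hzl-1 animals (adjusted p = 0.224). Its adjusted p ranged up to 0.117 and 0.281 over all alternatives.

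**Figure D3:**
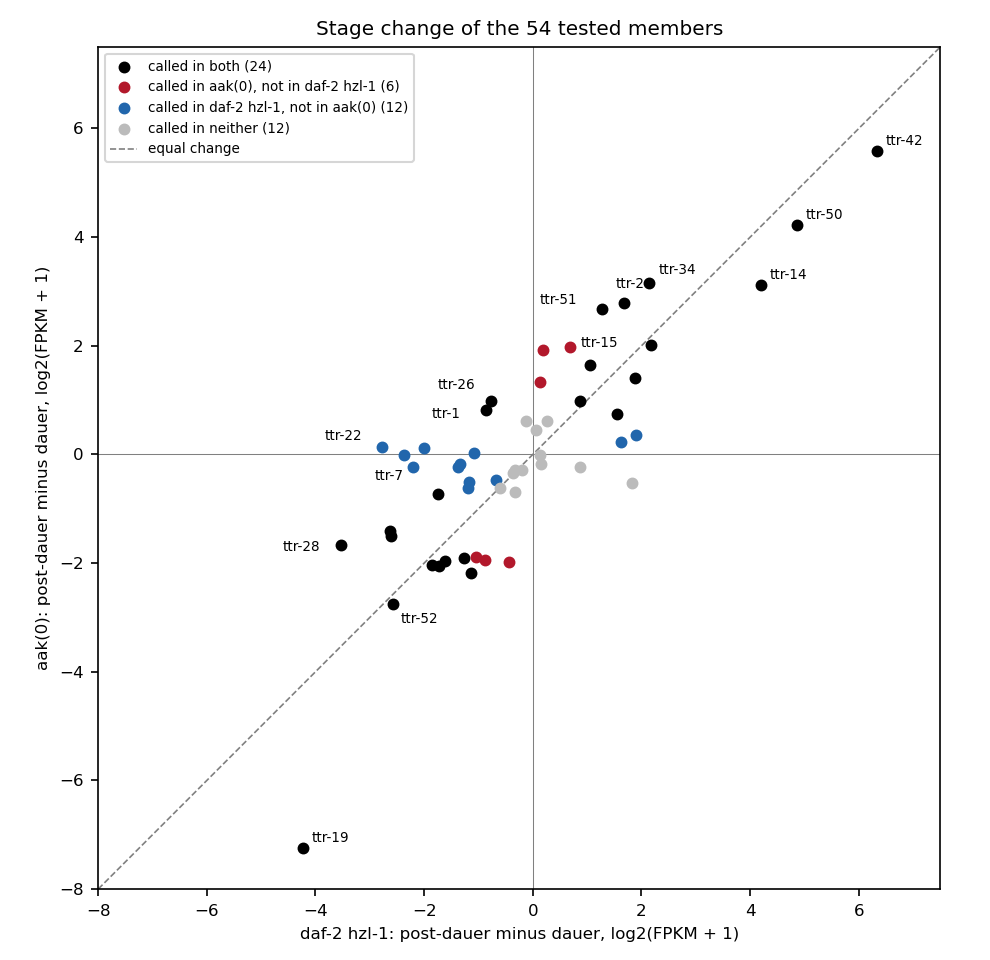
Post-dauer minus dauer difference in log2(FPKM + 1) of the 54 tested members in aak(0) (y axis) and in daf-2 hzl-1 animals (x axis), coloured by where the member was called. Of 24 members called in both genotypes, 22 lie in the quadrants of equal direction and 2, ttr-1 and ttr-26, above 0 in aak(0) and below 0 in daf-2 hzl-1 animals.

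A set of 11 members fell with dauer exit in both genotypes: ttr-5, ttr-10, ttr-18, ttr-19, ttr-25, ttr-28, ttr-33, ttr-37, ttr-39, ttr-43 and ttr-52. This is 20.4% of the tested members, while 21.6% of all tested genes fell in both. The steepest was ttr-19 (V:10226885-10227434, minus strand). It had 1.17 and 0 FPKM in aak(0) post-dauers, from 6 and 0 reads, against 195 and 252 in aak(0) dauers, and 12.5 and 6.00 FPKM in daf-2 hzl-1 post-dauers against 134 and 243 in daf-2 hzl-1 dauers. Dauers of both genotypes were thus above 100 FPKM and post-dauers at 12.5 FPKM or less, and the difference was -7.24 ± 0.50 in aak(0) and -4.22 ± 0.50 in daf-2 hzl-1 animals (SE, limma adjusted p = 1.5e-04 and 4.0e-04). ttr-25, one of the most abundant dauer members, had 155 and 130 FPKM in aak(0) post-dauers against 514 and 686 in aak(0) dauers, and 211 and 120 FPKM in daf-2 hzl-1 post-dauers against 382 and 736 in daf-2 hzl-1 dauers.

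Both members whose published roles are described above, ttr-52 and ttr-33, belonged to this falling group. ttr-52 (III:13404737-13405645, plus strand), the bridge in the clearance of dying cells, had 0.59 and 0.29 FPKM in aak(0) post-dauers against 8.09 and 9.24 in aak(0) dauers, and 0.99 and 1.47 FPKM in daf-2 hzl-1 post-dauers against 13.7 and 10.9 in daf-2 hzl-1 dauers. The gene was thus low in all libraries and lowest in post-dauers, where it rested on 2 to 14 reads, and it fell by 2.75 ± 0.25 in aak(0) and by 2.58 ± 0.25 in daf-2 hzl-1 animals (SE, limma adjusted p = 3.5e-04 and 1.9e-04). ttr-33 (V:7836935-7837935, minus strand), the neuron-protecting member, had 32.1 and 24.0 FPKM in aak(0) post-dauers against 72.5 and 88.9 in aak(0) dauers, and 11.4 and 9.69 FPKM in daf-2 hzl-1 post-dauers against 43.6 and 112 in daf-2 hzl-1 dauers. Its stages did not overlap in either genotype, at -1.50 ± 0.42 in aak(0) and -2.62 ± 0.42 in daf-2 hzl-1 animals (SE, limma adjusted p = 0.022 and 0.0015), but the aak(0) call was lost without aak(0) post-dauer library 2 or any one aak(0) dauer library, with adjusted p up to 0.117.

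Neither gene was called between genotypes. ttr-52 differed by -0.63 in post-dauers (95% interval -1.23 to -0.03, limma adjusted p = 0.226) and by -0.46 in dauers (-1.06 to 0.15, adjusted p = 0.217). ttr-33 differed by 1.32 in post-dauers (95% interval 0.32 to 2.32, limma adjusted p = 0.145) and by 0.20 in dauers (-0.80 to 1.19, adjusted p = 0.756). These intervals are wide, so the p-values do not show that the genotypes are alike.

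A list of genes of the clearance of dying cells was counted beside ttr-52. It holds engulfment genes and also genes that act on the exposure of phosphatidylserine, such as scrm-1. Of the 16 tested, 4 rose and none fell with dauer exit in aak(0) animals, while 8 rose and 1 fell in daf-2 hzl-1 animals. Among all tested genes 25.9% rose and 27% fell in aak(0) animals, and 39.4% and 27.8% in daf-2 hzl-1 animals. The median differences of the 16 were 0.22 and 0.77, against 0.02 and 0.34 for all genes. Under edgeR the falls in daf-2 hzl-1 animals were 5, in ced-1, chat-1, scrm-1, wah-1 and anoh-1; the last was below the FPKM filter and was called lower at the aak(0) exit too (edgeR -2.23, adjusted p = 0.0023). ced-1, the receptor that TTR-52 binds, was called at neither exit by limma but was lower at the daf-2 hzl-1 exit by edgeR (-0.62, adjusted p = 0.017), with 42.6 ± 6.83 FPKM in aak(0) post-dauers, 37.3 ± 2.35 in aak(0) dauers, 32.8 ± 1.95 in daf-2 hzl-1 post-dauers, with 40.5 ± 0.735 in daf-2 hzl-1 dauers (SD, n = 2). In aak(0) animals the rises were in ced-2, ced-6 and ced-10, which relay the engulfment signal to the cytoskeleton, and nrf-5, a secreted lipid-binding protein that acts with TTR-52, by 0.91, 0.61, 0.77 and 0.48; edgeR did not call that of nrf-5 (adjusted p = 0.085). In daf-2 hzl-1 animals psr-1, a phosphatidylserine receptor, rose by 1.43 ± 0.17 (SE, limma adjusted p = 4.4e-04). There scrm-1, a scramblase that exposes phosphatidylserine, fell by 0.94 ± 0.20 (SE, limma adjusted p = 0.0049). Of the 16 tested, 2 were higher in aak(0) post-dauers and 4 in aak(0) dauers, and none was lower. Among all tested genes 4.22% were higher and 0.443% lower in post-dauers, and 25.5% and 3.6% in dauers. The list medians were -0.10 in post-dauers and 0.49 in dauers, against 0.13 and 0.41 for all genes. Between genotypes limma called nrf-5 higher in aak(0) animals in both stages, with 41.4 ± 3.08 FPKM in aak(0) against 19.4 ± 0.771 in daf-2 hzl-1 post-dauers, then 29.3 ± 1.72 against 20.0 ± 1.03 FPKM in dauers (SD, n = 2; limma adjusted p = 0.019 and 0.046), and also scrm-1 in aak(0) post-dauers and ced-6, chat-1 and psr-1 in aak(0) dauers. Of these, edgeR called nrf-5 in post-dauers (adjusted p = 0.048) but not scrm-1 (0.057), and none of nrf-5, ced-6, chat-1 and psr-1 in dauers (adjusted p = 0.729, 0.199, 0.758 and 0.110).

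For the dopaminergic neurons that ttr-33 is known to protect, 9 genes of dopamine synthesis, transport and neuron identity were tested. With dauer exit 3 rose and 4 fell in aak(0) animals, and 2 rose and 6 fell in daf-2 hzl-1 animals. The shares of all tested genes were 25.9% and 27% in aak(0) and 39.4% and 27.8% in daf-2 hzl-1 animals. Between genotypes 1 of the 9 was higher and none lower in aak(0) post-dauers, and none was higher and 2 lower in aak(0) dauers. Among all tested genes 4.22% were higher and 0.443% lower in post-dauers, and 25.5% and 3.6% in dauers. The tyrosine hydroxylase gene cat-2 was at 0.340 ± 0.113 FPKM in aak(0) post-dauers against 2.41 ± 0.509 in aak(0) dauers, and at 0.195 ± 0.0778 FPKM in daf-2 hzl-1 post-dauers against 5.33 ± 0.742 in daf-2 hzl-1 dauers (SD, n = 2). It fell in both genotypes, and in dauers it was lower in aak(0) than in daf-2 hzl-1 animals (-0.89 ± 0.23, SE, limma adjusted p = 0.032), as was the vesicular transporter gene cat-1 (-0.79 ± 0.21, adjusted p = 0.031). The homeobox gene ceh-43 took opposite directions, rising by 1.15 ± 0.22 in aak(0) and falling by 2.14 ± 0.22 in daf-2 hzl-1 animals (SE, limma adjusted p = 0.0053 and 2.3e-04), and was the 1 gene of the list higher in aak(0) post-dauers (2.94 ± 0.22, adjusted p = 0.0023). Pan-neuronal markers fell as well: 12 of 14 in aak(0) and 14 of 14 in daf-2 hzl-1 animals, with summed levels of 520 to 524 FPKM in aak(0) post-dauers against 1790 to 2117 in aak(0) dauers, and 337 to 388 FPKM in daf-2 hzl-1 post-dauers against 2515 to 2783 in daf-2 hzl-1 dauers. Whole animals were sequenced, so fewer cells of a type and less RNA per cell cannot be told apart.

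The genes R09H10.3 and ZK697.8 encode the transthyretin-related hydroxyisourate hydrolases, enzymes of urate breakdown that share the fold but lie outside the named family. R09H10.3 averaged 126 ± 7.53 FPKM in aak(0) post-dauers against 67.9 ± 10.2 in aak(0) dauers, and 91.2 ± 8.38 FPKM in daf-2 hzl-1 post-dauers against 66.7 ± 20.8 in daf-2 hzl-1 dauers (SD, n = 2). It rose in aak(0) animals (0.88 ± 0.24, SE, limma adjusted p = 0.019) and was not called in daf-2 hzl-1 animals (0.48 ± 0.24, adjusted p = 0.114) or between genotypes. ZK697.8 was at 0.18 FPKM or less in every library and was not tested.

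Both exits coincided with a large change in the makeup of the RNA. Beside the counts below, 25.9% of all tested genes rose and 27% fell in aak(0) animals, and 39.4% and 27.8% in daf-2 hzl-1 animals. All 14 oocyte and germline markers rose in both genotypes, to summed levels of 5051 to 5425 FPKM in aak(0) post-dauers against 727 to 763 in aak(0) dauers, and 5473 to 5511 FPKM in daf-2 hzl-1 post-dauers against 124 to 158 in daf-2 hzl-1 dauers. Pharynx markers fell in 6 of 7 in aak(0) and 7 of 7 in daf-2 hzl-1 animals, and intestine markers rose in 7 of 13 and 9 of 13 and fell in 3 and 2. Sperm markers rose in 4 of 8 and 7 of 8. Hypodermis markers rose in 2 of 11 and fell in 2 in aak(0) animals, and rose in 3 and fell in 5 in daf-2 hzl-1 animals. Body muscle markers rose in 3 of 11 in each genotype and fell in 6 in aak(0) and 4 in daf-2 hzl-1 animals. Glia markers rose in 1 of 9 in each genotype and fell in 3 and 4. Excretory markers rose in none of 5 and fell in 2 in aak(0) animals, and rose in 2 and fell in 2 in daf-2 hzl-1 animals. No listed marker was at 0 in every library. The part of these changes in the family's changes was not tested.

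Further members responded to the stage in one genotype at the adjusted threshold. In aak(0) animals alone ttr-3, ttr-15 and ttr-45 were called higher and ttr-23, ttr-44 and ttr-49 lower in post-dauers, which is 5.56% of tested members each way, against 2.41% and 5.23% of all tested genes. In daf-2 hzl-1 animals alone ttr-9 and ttr-46 were called higher and ttr-6, ttr-7, ttr-8, ttr-16, ttr-22, ttr-27, ttr-29, ttr-30, ttr-32 and ttr-41 lower, or 3.70% and 18.5% of members, against 15.98% and 6.01% of all tested genes. A call in one genotype does not show a difference between genotypes, which the interaction tests. Of the 12 members called at neither exit, ttr-36, for example, averaged 167 ± 16.2 FPKM in aak(0) post-dauers, 122 ± 13.8 in aak(0) dauers, 116 ± 14.4 in daf-2 hzl-1 post-dauers, with 113 ± 34.1 in daf-2 hzl-1 dauers (SD, n = 2).

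The question of what AMPK loss does to the family was asked within each stage, with aak(0) set against daf-2 hzl-1 animals. In post-dauers 13 members were higher and 1 was lower in aak(0) animals, that is 13 and 1 of 54, whereas 4.22% of all tested genes were higher and 0.443% lower. With edgeR on recovered read counts 12 members were higher and 1 lower, against 3.38% and 0.786% of all genes. The member median was 0.81, against 0.13 for all genes, and the edgeR medians were 0.80 and 0.08. The count depended on single libraries. It fell without any one daf-2 hzl-1 post-dauer library, aak(0) post-dauer library 2 or any one aak(0) dauer library. Without any one daf-2 hzl-1 dauer library it rose. The share of all tested genes called fell and rose with the count in each of these fits. Without aak(0) post-dauer library 1 the count fell while that share rose. The dauers enter this comparison only through the pooled spread. Yolk genes, among the most abundant adult transcripts, were lower in aak(0) post-dauers in 4 of 6 cases, with 3810 and 4977 FPKM summed over the 6 genes against 19468 and 21298 FPKM in daf-2 hzl-1 post-dauers; FPKM values are relative to all transcripts; the part of this in the result was not tested.

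The largest rise in aak(0) post-dauers was that of ttr-50, at 182 ± 3.05 FPKM against 34.2 ± 2.81 in daf-2 hzl-1 post-dauers (SD, n = 2), a difference of 2.38 ± 0.25 (SE, limma adjusted p = 0.0057). It also had the largest rise in dauers, 8.94 ± 1.85 against 0.225 ± 0.318 FPKM, a difference of 3.03 ± 0.25 (SE, adjusted p = 5.5e-04), which was called under every alternative tried, while the post-dauer call was lost without daf-2 hzl-1 post-dauer library 1 and with a pseudocount of 0.1 (adjusted p up to 0.136). Next were ttr-32, ttr-45, ttr-51 and ttr-34, higher by 1.87 to 2.20 in aak(0) post-dauers. ttr-32 had 80.9 and 81.1 FPKM in aak(0) post-dauers against 15.1 and 18.9 FPKM in daf-2 hzl-1 post-dauers (2.20 ± 0.28, limma adjusted p = 0.012). ttr-45 had 525 and 600 FPKM in aak(0) post-dauers against 125 and 155 FPKM in daf-2 hzl-1 post-dauers (2.00 ± 0.27, adjusted p = 0.014). For ttr-51 and ttr-34 the differences were 1.99 ± 0.22 and 1.87 ± 0.26 (SE, limma adjusted p = 0.0065 and 0.014). In each of these 4 genes the genotypes were well separated, but each call was lost without daf-2 hzl-1 post-dauer library 1, and those of ttr-32, ttr-45 and ttr-34 also without library 2 of that group or aak(0) post-dauer library 2, with adjusted p up to 0.105, 0.117, 0.073 and 0.120 for ttr-32, ttr-45, ttr-51 and ttr-34.

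The most stable call in post-dauers was that of ttr-8, the close neighbour of ttr-32. It had 76.2 and 67.6 FPKM in aak(0) post-dauers against 22.03 and 19.1 FPKM in daf-2 hzl-1 post-dauers, a difference of 1.76 ± 0.17 (SE, limma adjusted p = 0.0048) that held under all 19 alternatives. The other members called higher were ttr-2, ttr-3, ttr-6, ttr-7, ttr-18, ttr-20 and ttr-26, by 1.29 to 1.65. Of these, ttr-3 was not called by edgeR (adjusted p = 0.579), and all 7 lost the call without either daf-2 hzl-1 post-dauer library, with adjusted p up to 0.209, 0.070, 0.214 and 0.145 for ttr-2, ttr-7, ttr-20 and ttr-26. The 1 lower member was ttr-19, whose 6 and 0 reads in aak(0) post-dauers stood against 60 and 38 reads in daf-2 hzl-1 post-dauers (-2.72 ± 0.50, SE, limma adjusted p = 0.033); this call was lost in 9 alternatives, among them leaving out either daf-2 hzl-1 post-dauer library, aak(0) post-dauer library 2 or any one aak(0) dauer library, with adjusted p up to 0.199.

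**Figure D4:**
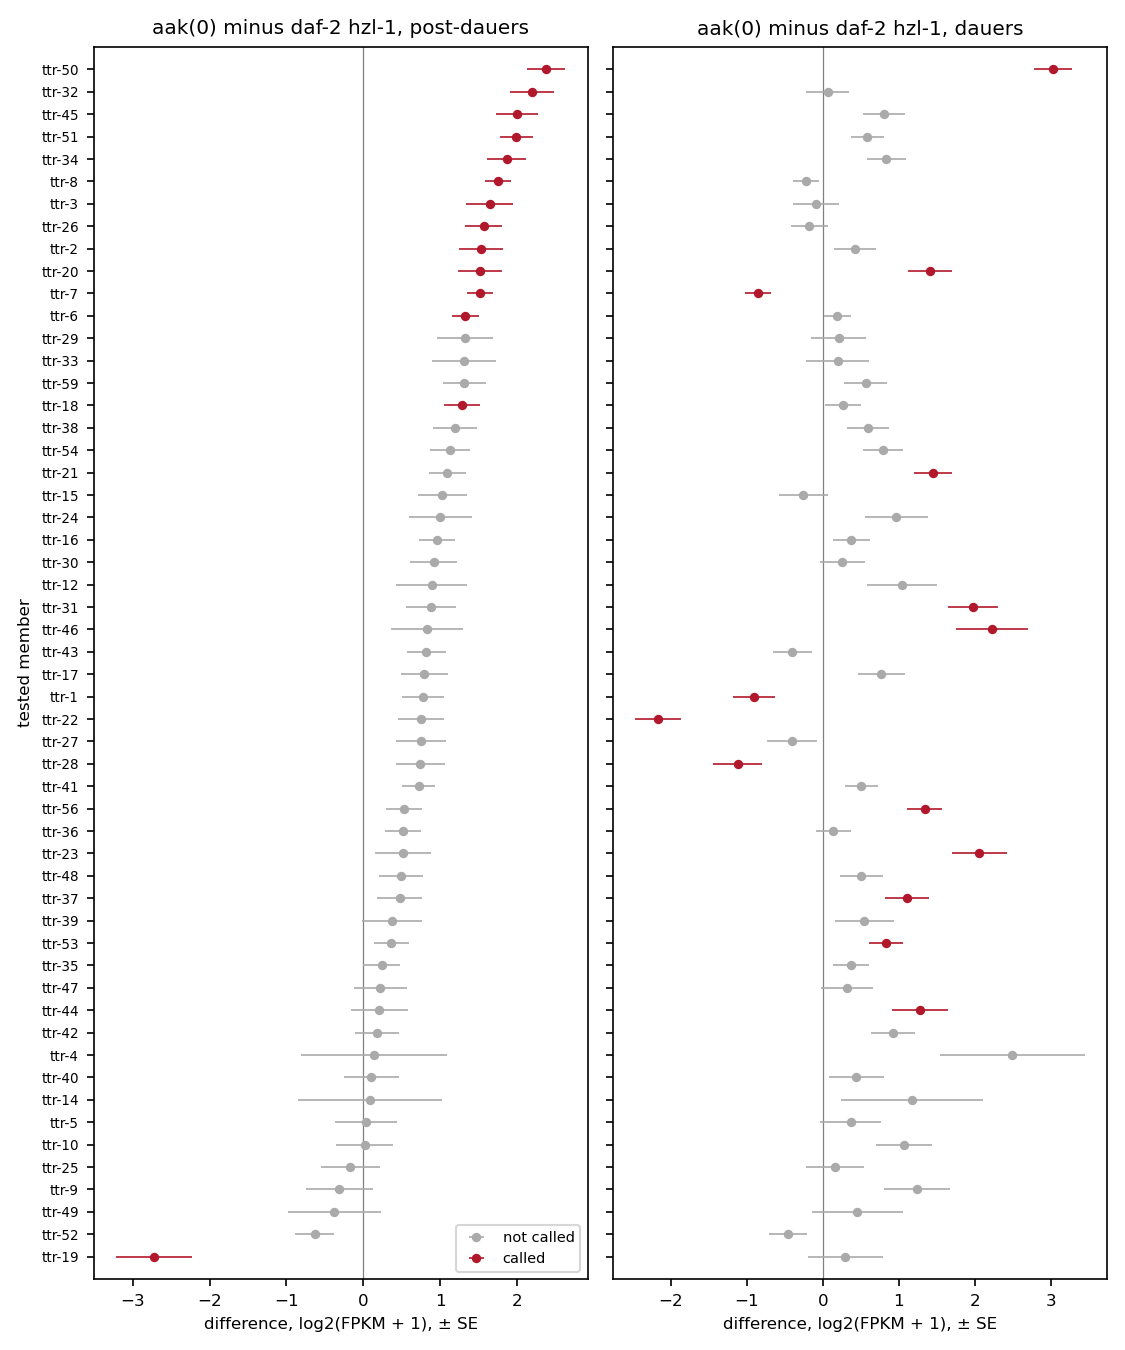
Difference of aak(0) minus daf-2 hzl-1 animals in log2(FPKM + 1) (x axes, ± SE) for the 54 tested members (rows, ordered by the post-dauer difference), in post-dauers (left) and dauers (right), with called members in red. In post-dauers 13 red points lie above 0 and 1, ttr-19, below, and in dauers 10 lie above and 4 below.

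In dauers the share of members called was nearer to that of all genes. In all, 10 were higher and 4 lower in dauers that lacked AMPK, with 25.5% and 3.6% of all genes, and the member median of 0.48 was near the all-gene median of 0.41. This comparison moved with the scaling, which takes the all-gene median to 0.05 under edgeR: edgeR called 7 members higher and 4 lower (14.8% and 7.99% of all genes), with a member median of 0.07, and after rescaling every library to one median 5 were higher and 7 lower. Without daf-2 hzl-1 dauer library 1, which stood apart, fewer members were called in each direction, and the all-gene median was 0.29. Without library 2 of that group more were called higher and fewer lower, and the all-gene median was 0.53. Fewer members, and a smaller share of all tested genes, were called without any one aak(0) dauer library or daf-2 hzl-1 post-dauer library 2. Germline markers were higher in aak(0) dauers in 13 of 14 cases, intestine markers in 8 of 13 and body muscle markers in 5 of 11, with summed intestine levels of 2447 to 2805 FPKM in aak(0) dauers against 788 to 1198 in daf-2 hzl-1 dauers; their part in the family's differences was not tested.

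The 6 largest rises in aak(0) dauers were those of ttr-50 and of ttr-46, ttr-23, ttr-31, ttr-21 and ttr-20. ttr-46 had 338 and 357 FPKM in aak(0) dauers against 41.1 and 130 in daf-2 hzl-1 dauers (2.23 ± 0.47, SE, limma adjusted p = 0.016; without daf-2 hzl-1 dauer library 1 the difference was 1.41). ttr-23 averaged 69.3 ± 6.45 FPKM in aak(0) dauers against 16.6 ± 7.55 in daf-2 hzl-1 dauers (SD, n = 2; difference 2.06 ± 0.36, limma adjusted p = 0.0085), and ttr-31 had 62.5 and 77.6 against 12.6 and 22.7 FPKM (1.98 ± 0.32, adjusted p = 0.0068). In these 3 genes the 2 genotypes did not overlap. Their calls were lost without an aak(0) dauer library (any one for ttr-46 and ttr-23, library 2 for ttr-31). ttr-21 and ttr-20 rose by 1.45 ± 0.25 and 1.41 ± 0.29 (SE, limma adjusted p = 0.0075 and 0.014); ttr-21 was not called after rescaling to one median or without aak(0) dauer library 1, and ttr-20 not by edgeR (adjusted p = 0.051) or without any one aak(0) dauer library, with adjusted p up to 0.073 and 0.091 over the alternatives.

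The 4 members lower in aak(0) dauers were ttr-22, ttr-28, ttr-1 and ttr-7. ttr-22 had 0.83 and 1.03 FPKM in aak(0) dauers against 10.2 and 5.63 in daf-2 hzl-1 dauers (-2.16 ± 0.30, SE, limma adjusted p = 0.0037), from 7 and 8 reads against 48 and 33, and kept its call under every alternative in which it could be tested. ttr-28 had 12.9 and 10.01 FPKM in aak(0) dauers against 24.8 and 27.03 in daf-2 hzl-1 dauers (-1.12 ± 0.32, adjusted p = 0.042), and ttr-1 had 22.2 and 32.01 against 47.6 and 54.1 FPKM (-0.90 ± 0.27, adjusted p = 0.049). Both calls are near the threshold and were lost without any one of the 6 libraries other than the aak(0) post-dauers, with adjusted p up to 0.218 and 0.254. ttr-7 had 26.2 and 30.2 FPKM in aak(0) dauers against 48.1 and 55.4 in daf-2 hzl-1 dauers (-0.85 ± 0.17, limma adjusted p = 0.012), a call lost without any one aak(0) dauer library (adjusted p up to 0.105). In all 4 genes the 2 genotypes did not overlap.

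Whether the stage change itself depended on AMPK was tested as the interaction, the post-dauer minus dauer difference in aak(0) minus the same difference in daf-2 hzl-1 animals. Of 54 members, 10 were called with a higher and 1 with a lower value, against 3.54% and 7.8% of all genes; edgeR called 14 and 2, against 5.23% and 7.79%. The member median was 0.08, against -0.34 for all genes, and the edgeR medians were 0.46 and -0.07. Again the count depended on single libraries. It fell without any one aak(0) dauer or daf-2 hzl-1 post-dauer library or aak(0) post-dauer library 2, as did the share of all tested genes called. Without aak(0) post-dauer library 1 the count fell slightly while that share rose. Without daf-2 hzl-1 dauer library 1 the count rose while that share fell, and every called member had a higher value. Without library 2 of that group both rose, and more of the called members had a lower value. Germline markers had a lower interaction in 11 of 14 cases, intestine markers in 3 of 13 and yolk genes in 4 of 6.

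In 5 of these members, ttr-6, ttr-7, ttr-8, ttr-32 and ttr-22, the stage change was not called in aak(0) animals and was a fall in daf-2 hzl-1 animals. ttr-7 (III:606004-606994, plus strand) had 28.9 and 27.2 FPKM in aak(0) post-dauers against 26.2 and 30.2 in aak(0) dauers, and 9.22 and 9.01 FPKM in daf-2 hzl-1 post-dauers against 48.1 and 55.4 in daf-2 hzl-1 dauers. The aak(0) stages overlapped, the daf-2 hzl-1 stages differed by -2.38 ± 0.17 (SE, limma adjusted p = 5.3e-05), and the interaction was 2.37 ± 0.24 (SE, adjusted p = 0.0032). It was the 1 member called higher in aak(0) post-dauers and lower in aak(0) dauers. ttr-8 had 76.2 and 67.6 FPKM in aak(0) post-dauers against 80.04 and 89.1 in aak(0) dauers, and 22.03 and 19.1 FPKM in daf-2 hzl-1 post-dauers against 88.6 and 110 in daf-2 hzl-1 dauers, with an interaction of 1.98 ± 0.24 (SE, limma adjusted p = 0.0060). Both interactions were called under all 17 alternatives.

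ttr-32 and ttr-22 followed the same form with calls that rest on more of the libraries. ttr-32 had 80.9 and 81.1 FPKM in aak(0) post-dauers against 71.5 and 77.3 in aak(0) dauers, and 15.1 and 18.9 FPKM in daf-2 hzl-1 post-dauers against 52.4 and 95.8 in daf-2 hzl-1 dauers (interaction 2.13 ± 0.40, SE, limma adjusted p = 0.022). ttr-22 had 0.97 and 1.31 FPKM in aak(0) post-dauers against 0.83 and 1.03 in aak(0) dauers, and 0.20 and 0.34 FPKM in daf-2 hzl-1 post-dauers against 10.2 and 5.63 in daf-2 hzl-1 dauers (interaction 2.91 ± 0.43, adjusted p = 0.010). ttr-22 was thus low in 3 groups and raised in the daf-2 hzl-1 dauers. The ttr-32 call was lost without aak(0) post-dauer library 2, either aak(0) dauer library or either daf-2 hzl-1 post-dauer library, and the ttr-22 call without any one aak(0) dauer library or daf-2 hzl-1 post-dauer library 1, with adjusted p up to 0.107 and 0.066.

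The members ttr-26 and ttr-1 rose in aak(0) and fell in daf-2 hzl-1 animals with dauer exit, as did 0.189% of all tested genes. ttr-26 (V:18558748-18560308, minus strand) had 218 and 224 FPKM in aak(0) post-dauers against 110 and 114 in aak(0) dauers, and 78.1 and 70.1 FPKM in daf-2 hzl-1 post-dauers against 97.0 and 164 in daf-2 hzl-1 dauers. It rose by 0.98 ± 0.24 in aak(0) and fell by 0.76 ± 0.24 in daf-2 hzl-1 animals (SE, limma adjusted p = 0.014 and 0.027), and the interaction was 1.74 ± 0.34 (adjusted p = 0.025). ttr-1 (III:9929058-9930413, plus strand) had 58.8 and 38.7 FPKM in aak(0) post-dauers against 22.2 and 32.01 in aak(0) dauers, and 24.4 and 30.8 FPKM in daf-2 hzl-1 post-dauers against 47.6 and 54.1 in daf-2 hzl-1 dauers, with stage differences of 0.82 ± 0.27 and -0.86 ± 0.27 (SE, limma adjusted p = 0.042 and 0.027). The stages of both genes did not overlap in either genotype. Each of these calls was lost when 1 of several libraries was left out: the ttr-26 interaction without aak(0) post-dauer library 2, an aak(0) dauer library or a daf-2 hzl-1 post-dauer library, and the ttr-1 stage call in aak(0) animals without any one library other than aak(0) post-dauer library 2, with adjusted p up to 0.113 and 0.227.

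**Figure D5:**
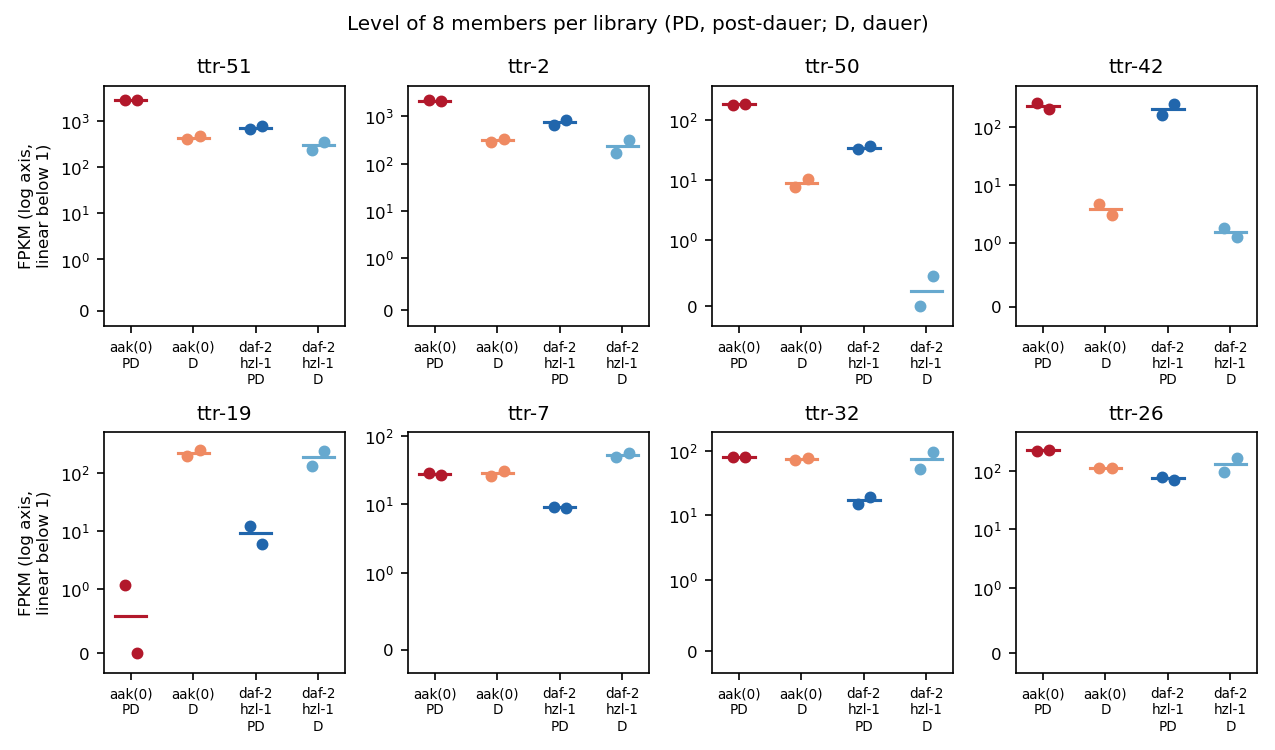
FPKM (y axes, logarithmic above 1 and linear below) of 8 members in the 2 libraries of each group (points) with the group mean (line), for aak(0) and daf-2 hzl-1 post-dauers (PD) and dauers (D). ttr-50 differs between all 4 groups, ttr-42 and ttr-19 follow the stage, ttr-7 and ttr-32 are lowest in daf-2 hzl-1 post-dauers, while ttr-26 is highest in aak(0) post-dauers.

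Many members lie beside each other in the genome. On the coordinates of the deposited table, 29 of the 59 members fell into 12 runs of 2 or 3 members no more than 5 kb apart, and chromosome V held 22 members, X 12, III and IV 10 each, I 3 and II 2. The pair ttr-8 and ttr-32 (III:7564500-7567486, on opposite strands) moved alike: both fell in daf-2 hzl-1 animals, and both were called higher in aak(0) post-dauers and in the interaction. All 3 genes of the run ttr-27, ttr-28 and ttr-29 (V:12903551-12906746) fell with dauer exit in daf-2 hzl-1 animals, by 1.33, 3.53 and 1.09. In the run ttr-3, ttr-2 and ttr-1 (III:9925630-9930413) all 3 genes were called higher at the aak(0) exit, but 2 of these calls rest on less. The ttr-3 call uses FPKM, and its recovered reads were 70 and 13 in aak(0) post-dauers against 14 and 16 in aak(0) dauers. The ttr-1 call was lost in 11 of 18 alternatives. In daf-2 hzl-1 animals ttr-2 rose, ttr-1 fell and ttr-3 was not called. Neighbours also diverged: in aak(0) animals ttr-26 rose while ttr-25, in the same run on V:18555387-18560308, fell by 2.06 ± 0.38 (SE, limma adjusted p = 0.0046). By chromosome, 2 of 19 tested members on V rose and 9 fell in aak(0) animals, against 5 and 1 of 10 on IV. On III 4 of 10 rose and 2 fell, and on X 4 of 12 rose and 1 fell. In daf-2 hzl-1 animals 2 rose and 10 fell on V, and 5 and 2 on IV. On III 1 rose and 6 fell in that genotype, and on X 4 and 3. Chromosomes I and II held 1 and 2 tested members. Shares of all genes on each chromosome were not computed, so these counts do not show a difference between chromosomes.

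Exon overlaps were taken from a separate gene annotation, where only 15 of the 59 members keep the span of the deposited coordinates. There, exons of 18 members overlap another gene. Whether reads were counted by strand is not given in the sources used here, so those values could hold reads of the overlapping gene. In that annotation all 364 exonic bases of ttr-4 lie within cbp-3 on the opposite strand. On the deposited coordinates these genes do not overlap. Although ttr-4 is listed at 0 to 17.2 FPKM in the expression table, its read count was 0 in all 8 libraries. No level is therefore given for it. cbp-3 itself was at 24.1 to 85.8 FPKM. By its FPKM ttr-4 stayed among the 54 tested members, so it enters their counts and medians and the family's summed FPKM. It was called in no comparison. Members share sequence with each other to a degree not measured here, so reads of close copies could have been divided between them.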

How the data were processed

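Whole hermaphrodites of 4 groups were sequenced after poly(A) selection, in 2 libraries a group. Reads were processed with Trimmomatic 0.35, STAR 2.7.1a, RSEM and DESeq2 1.30.1 on build WBcel235, per the submitters' processing notes; the annotation release is not given in the sources used here. The authors deposited FPKM values for every gene and library, used here for levels and for the main test. A signal table of normalised counts was also deposited by the authors, from which whole reads were recovered for 100% of values above 0 at a tolerance of 1e-06. The authors' deposited table of log2 fold changes with adjusted p-values compares the stages within each genotype. No column of per-sample values was left unused (0).

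From these, log2(FPKM + 1) was tested with limma 3.58.1 (trend, two-sided, all 8 libraries, R 4.3.3) on the 15365 genes with a mean of at least 1 FPKM, with Benjamini-Hochberg adjustment over them. On the recovered reads, edgeR 4.0.16 (quasi-likelihood, TMM or RLE) and DESeq2 1.42.0 were run as alternatives (edgeR with TMM called 577 genes higher and 134 lower in aak(0) post-dauers than in the daf-2 hzl-1 group), beside another pseudocount, other filters, a rescaling of every library to one median, fits of 4 libraries, a replicate block and each library left out. The script was tested on simulated data first. Same-numbered libraries did not deviate together (correlations of -0.258 to 0.015), so the replicate number was not used as a block in the main test. Totals of 13992157 to 26984881 reads set the counting precision, and counting error alone would not include differences between cultures.

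Members and gene lists were chosen with earlier results of these data known. Named members are, in each of the 5 comparisons, up to 6 called members with the greatest rise and up to 6 with the greatest fall whose groups did not overlap (for the interaction, called alone), the 3 highest in each group, and ttr-52 and ttr-33. From the lists for engulfment, hydrolases and dopamine neurons, the 3 genes with the smallest adjusted p in each comparison could be named, with nrf-5, ced-1, R09H10.3 and ZK697.8 always. Members outside this rule that are named (ttr-3, ttr-4, ttr-36 and those listed by call) were picked after their values were seen.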

Additional observations from a re-analysis of the deposited data

Results flagged for a closer look

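In 11 members the post-dauer minus dauer difference itself differed between aak(0) and daf-2 hzl-1 animals, by the interaction term of limma on log2(FPKM + 1) at an adjusted p under 0.05. The value was above 0 in 10 of them, the signed difference being more positive in aak(0) animals: 2.91 for ttr-22, 2.37 for ttr-7, 2.13 for ttr-32, 1.98 for ttr-8, 1.86 for ttr-28, 1.74 for ttr-26, 1.73 for ttr-3, 1.68 for ttr-1, 1.41 for ttr-51 and 1.14 for ttr-6. It was -3.02 for ttr-19, the member that fell most in aak(0) animals and that rests on 6 and 0 reads in aak(0) post-dauers.

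The forms differ. ttr-51 rose in both genotypes, by 2.68 in aak(0) and 1.28 in daf-2 hzl-1 animals, and ttr-28 fell in both, by 1.67 and 3.53. ttr-6 had 266 and 256 FPKM in aak(0) post-dauers against 284 and 335 in aak(0) dauers, and 100.05 and 106 FPKM in daf-2 hzl-1 post-dauers against 232 and 313 in daf-2 hzl-1 dauers. ttr-3 was at 58.5 and 36.8 FPKM in aak(0) post-dauers and at 9.88 to 16.2 FPKM in the other 6 libraries. Its recovered reads do not follow these levels, with 70 and 13 in aak(0) post-dauers against 12 to 17 in those 6. The limma calls of ttr-3 use the FPKM values alone, and edgeR, on the reads, did not call its interaction (adjusted p = 0.333). Of the 11, ttr-7 and ttr-8 were called under all 17 alternatives.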

How the results depend on the processing

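For the 31 named members, 77 called differences were recomputed under the alternatives, giving 1384 values: 1204 kept their direction and call, 180 kept the direction and lost the call, and 0 reversed. The call was never lost for 39 of the 77. The number of members called was 30 and 36 at dauer exit in aak(0) and daf-2 hzl-1 animals, 14 each for aak(0) against daf-2 hzl-1 in post-dauers and in dauers, and 11 for the interaction. It moved by more than 1.5 times with edgeR and no filter (22 in post-dauers, 21 in the interaction), with the 4 dauer libraries fitted alone (8), and in the interaction with no filter on FPKM (7), with edgeR and RLE scaling (17) and with DESeq2 (17). Leaving out 1 library gave 21 to 32, 26 to 39, 1 to 23, 3 to 27 and 2 to 15 members called in the 5 comparisons, and shares of reads of 0.509% to 0.547%, 0.351% to 0.417%, 0.231% to 0.254% and 0.228% to 0.361% in aak(0) post-dauers, aak(0) dauers, daf-2 hzl-1 post-dauers and daf-2 hzl-1 dauers. The share of all tested genes called moved as well when a library was left out, and the cause of these shifts was not tested. Where leaving out a library left 1 in a group, that library was assumed to vary like the other groups. With the replicate block the counts were 27, 36, 11, 13 and 8; the numbers do not pair the libraries. The crossed pairing in post-dauers, added after seeing the data, gave 18 higher and 0 lower. Members at a few reads, such as ttr-14, ttr-19, ttr-22, ttr-50 and ttr-56 in their low groups, are limited by depth, and with 2 libraries a group the calls near the threshold depend on single libraries.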
